A study of Homo sapiens with 2 samples.

Results

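This account follows 7 genes through a map of DNA recovered with a TCF4 antibody: the E protein genes TCF3, TCF4 and TCF12 and the inhibitor genes ID1, ID2, ID3 and ID4. They were taken by name from the 19866 protein-coding records of a RefSeq table for GRCh38, and every peak summit inside, within 1 kb of an end of, or within 100 kb of a record was assigned to it. That gave 31 of the 26642 peaks in the deposited list. The material was CAL-27, an established line from a squamous carcinoma of the human tongue, grown as spheres, a culture form often used to enrich stem-like tumour cells. The TCF4 antibody was used on 1 library and an IgG control antibody on 1 library, of which the control was not analysed here. A peak therefore marks DNA enriched over the caller's background, and peaks that would also arise with IgG could not be told apart from those that need the TCF4 antibody. With a single library per antibody there is no spread between replicates behind any value, and the antibodies were not tested against each other.

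E proteins are basic helix-loop-helix transcription factors. They form dimers, with each other or with tissue-restricted partners, and bind E-boxes, short sites that read CANNTG. ID proteins carry the helix-loop-helix but no basic region, so they pair with E proteins and keep them off DNA. In stratified epithelium high ID levels are generally linked to proliferation and E protein activity to cell cycle exit. The name TCF4 is also in use for TCF7L2, a partner of beta-catenin, and the labels do not state which protein the antibody binds.

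The 7 genes differed widely in how many peaks lay in and around them. A summit lay within 1 kb of an end of TCF3, TCF12, ID1 and ID3, which is 4 of 7 genes, while TCF4, ID2 and ID4 had none. Among all protein-coding records 41.5% had such a summit. A summit lay inside 2 of the 7 records, TCF12 and ID3, against 39.0% of all protein-coding records. Within 100 kb, 6 of the 7 had at least 1 summit, against 85.1% of all records. The gene with none was TCF4. Counts out of 7 are too small to set apart from these shares, so the layout at each gene is described in turn.

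**Figure D1:**
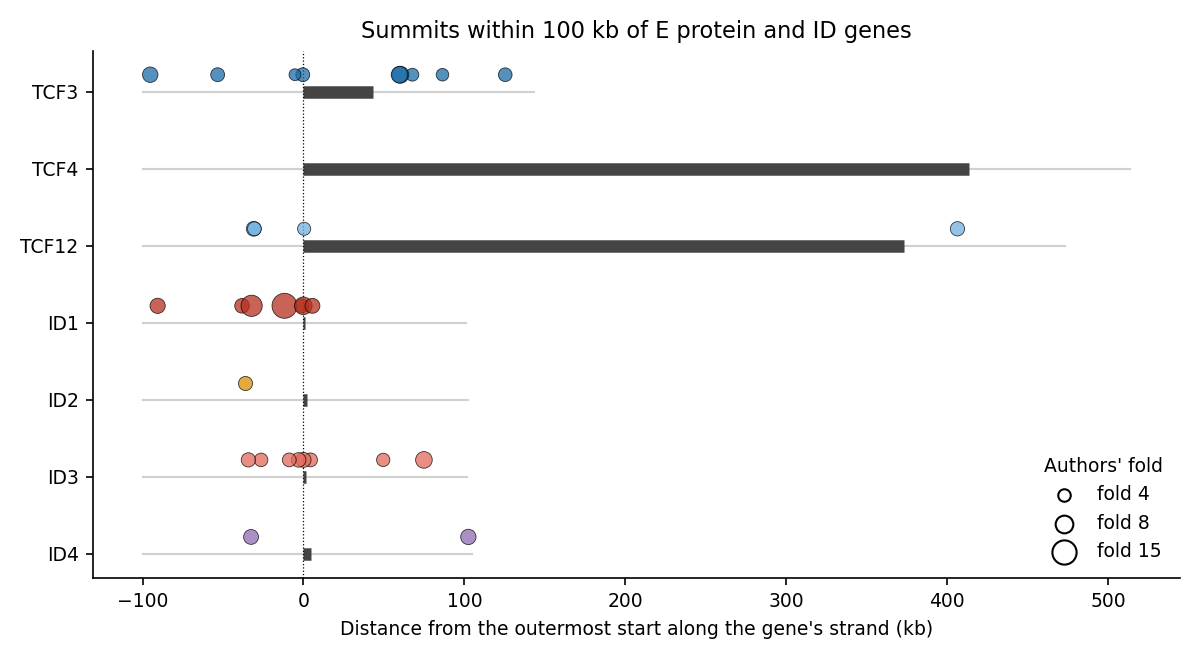
Each row is a gene, drawn from its outermost annotated start (0) along its own strand, with distance in kb on the horizontal axis, the gene record as a dark bar and the 100 kb on either side as a grey line. Each circle is a summit, sized by the authors' fold enrichment. The TCF4 row holds no circle, and the largest circle of all lies before ID1.

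The authors' fold enrichment sets the fragments at a summit against the local background estimated by the peak caller. The 31 peaks had folds of 3.59 to 16.0 with a median of 5.23, against a median of 5.13 over the whole list. They rested on 6 to 47 fragments, with a median of 11 against 10 for the list. Of the 31, 15 rested on 10 fragments or fewer, against 55.5% of all peaks, so the height of such a peak is known only roughly: an exact 95% Poisson interval for 10 fragments runs from 4.80 to 18.4. These intervals cover counting error only. The −log10 q was at least 5 in 14 of the 31, against 41.2% of all peaks, and at least 10 in 5, against 16.4%. Most of the peaks around these genes were thus of the ordinary height and depth of the list.

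Starts and strands came from a RefSeq table of promoter windows, 250 bases before to 50 after each annotated start, which held all 7 genes with 20 windows. With strand known, all 4 peaks at gene ends were found at starts and none at a finish. Among the 15842 protein-coding records with a start in that table, 44.5% had a summit within 1 kb of a start. How end summits divide between starts and finishes over all records is not given here. The 4 peaks therefore cannot be called unusual in this.

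**Figure D2:**
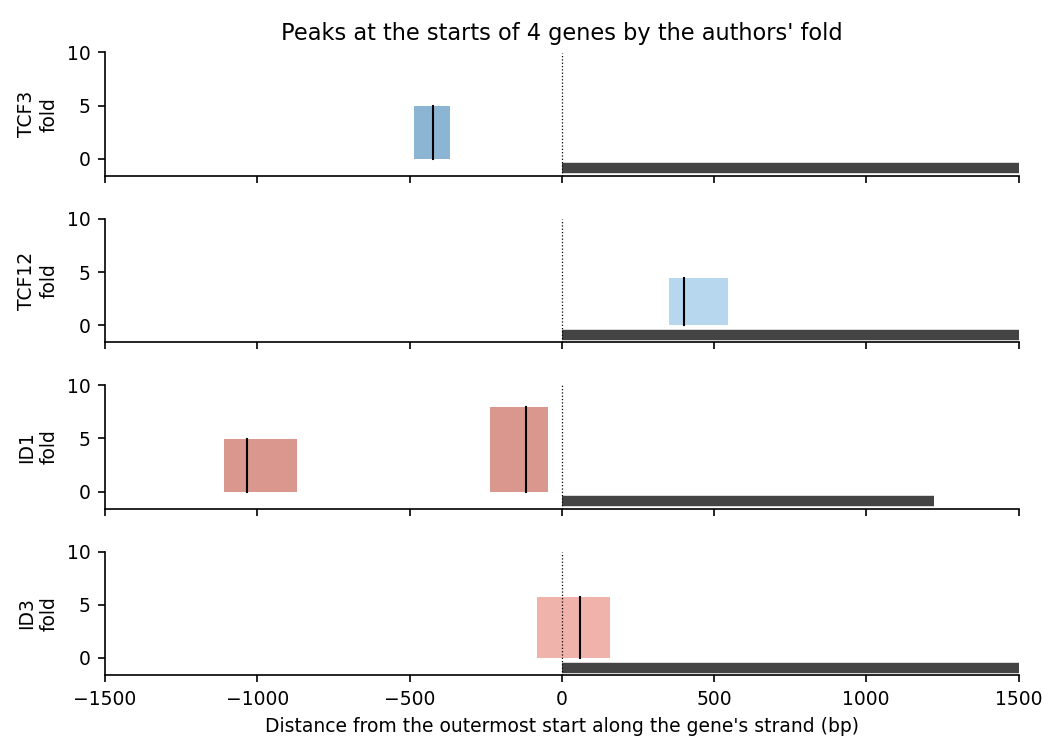
Peaks near the outermost start (0, dotted) of TCF3, TCF12, ID1 and ID3, in bp along each gene's strand. Shaded blocks span the peak with a height equal to the authors' fold enrichment, black lines mark summits and dark bars the gene record. The ID1 and ID3 peaks adjoin or cross the start, the TCF3 peak lies before it and the TCF12 peak lies after the outermost of several starts.

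TCF3 encodes E12 and E47, the E proteins first known from immunoglobulin enhancers. Its record spans chromosome 19 from 1609292 to 1652615 on the minus strand, with 1 start in the table. The peak at that start covered 1652981 to 1653100, and its summit lay 424 bp upstream. It had a fold of 4.93 on 18 fragments (Poisson interval 10.7 to 28.4) and a −log10 q of 6.08. Its local background was 2.86 fragments, and the fold lay below the median of the list although the fragments lay above it. No summit lay inside the TCF3 record.

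A further 8 summits lay within 100 kb of TCF3. Before the start they stood 5.29, 53.3 and 95.2 kb away. The nearest of these was the weakest of all 31 peaks, with a fold of 3.59 on 10 fragments. The farthest, 5668 bp from ONECUT3, a homeobox transcription factor gene, was 819 bp wide and had a fold of 6.10 on 32 fragments. Beyond the finish lay 5 summits, all nearer to other genes. The strongest was inside MBD3, a subunit of the NuRD repressor complex, 415 bp from its end, with a fold of 7.39 on 18 fragments. Its neighbour 109 bp outside MBD3 had a fold of 7.03 on 17 fragments. The other 3, in MBD3, MEX3D and PLK5, had folds of 4.22, 4.04 and 4.78.

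TCF12 encodes HEB, an E protein active in lymphoid, muscle and neural development. Its record runs over 373 kb on chromosome 15, from 56918090 to 57291310 on the plus strand, with 5 annotated starts. Its only summit inside the record fell on the cluster of 4 starts at the front, 402 bp after the outermost start and 152 bp before the next start that follows it. The peak covered 56918442 to 56918637, and its fold was 4.43 on 6 fragments (interval 2.20 to 13.1) and a −log10 q of 2.57. It was the shallowest of the 31 and is known least well. The same place lies within the TCF12-DT record, a lncRNA transcribed away from TCF12, and the peak overlapped the start windows of both genes. The fifth start, far inside the gene, was 105 kb from the nearest summit. The 30 bases around the summit are shown because they lie in the window of the start at 56918644, with the summit base in capitals, 5′ to 3′ on the plus strand, at chr15:56918478-56918507 (RefSeq, GRCh38.p14).
TCF12: gcctcacccgaccgCgggctttgtccaccc

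The remaining 3 summits near TCF12 lay outside it. A pair stood 30.5 and 30.9 kb before the outermost start, where the records of the lncRNAs TCF12-DT and LINC03065 overlap, with folds of 4.93 on 7 fragments and 5.60 on 8 fragments. The last stood 33.1 kb beyond the finish, in the lncRNA LINC01413, with a fold of 5.23 on 10 fragments. The remainder of the long TCF12 body held no summit.

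TCF4 encodes ITF2, or E2-2, an E protein needed for plasmacytoid dendritic cells and for brain development. Its record covers 414 kb on chromosome 18, from 55222185 to 55635957 on the minus strand, with 10 annotated starts. No summit lay in the record or within 100 kb of it. The nearest summit of all stood 1122 kb beyond the finish and the nearest on the other side 1986 kb before the outermost start. Of the 10 starts, the closest to any summit was 1221 kb away and the farthest 1536 kb. No start of TCF4 therefore had a peak near it, whichever isoform is considered.

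The flanking peaks that bound this empty stretch were modest. The peak beyond the finish lay on chromosome 18 at positions 54099679 to 54099802. Its fold was 5.42 on 7 fragments, and the nearest protein-coding end was that of MBD2, a reader of methylated CpG, 51903 bp away. The peak before the start lay 93 bp from NARS1, the asparaginyl-tRNA synthetase gene, with a fold of 6.78 on 9 fragments. Between them lay 3522 kb with no summit and with 15 protein-coding records in full. It was the fourth longest of the 331 gaps between neighbouring summits on that chromosome, where the median gap was 53.8 kb, and 45 of 26618 gaps over all chromosomes were as long or longer.

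Peaks were sparse on chromosome 18 as a whole. There 100 of 268 protein-coding records (37.3%) had no summit within 100 kb, against 2953 of 19866 (14.9%) over all chromosomes. Long genes without a nearby peak were not rare either. Of the 367 other protein-coding records of like length, from 20% shorter to 25% longer than TCF4, 88 (24.0%) had no summit within 100 kb and 136 (37.1%) had none inside. No peak in the list rested on fewer than 5 fragments. Enrichment at TCF4 below the limits of the peak caller would not appear in the list, and whether there was any was not tested.

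ID1 is the family member most often described as an early target of BMP signalling. Its record is short, 1222 bp on chromosome 20 from 31605289 to 31606510 on the plus strand. A peak from 31605054 to 31605244 lay directly before the start, with its summit 117 bp upstream. It had a fold of 7.99 on 20 fragments (interval 12.2 to 30.9) and a −log10 q of 11.9. This was the strongest of the 4 peaks at member starts. Of the 8241 protein-coding genes with a summit at an end, 70.7% had a lower best fold than ID1. The peak also overlapped the start window of a lncRNA, LOC105372588. A second summit stood 1033 bp upstream, just past the 1 kb limit, with a fold of 4.93 on 12 fragments.

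The strongest peak near any of the 7 genes lay farther upstream of ID1. It covered 31593434 to 31593871, with its summit 11.8 kb before the ID1 start, in no gene record and 11187 bp from the nearest other record. Its fold of 16.0 ranked 155 of 26642, on 47 fragments (interval 34.5 to 62.5), with a −log10 q of 42.4. The interval for its fragments lies wholly above that of the peak at the ID1 start. ID1 was the nearest protein-coding gene.

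The next strongest stood 32.2 kb upstream, at 31572683 to 31573337, and its fold was 11.5 on 34 fragments (interval 23.5 to 47.5). It lay in the lncRNA records HM13-AS1 and LOC107985416, 3525 bp from HM13, which encodes signal peptide peptidase. Within HM13 itself, summits 38.2 and 90.6 kb before ID1 had folds of 5.46 on 16 fragments and 5.93 on 9 fragments. Downstream of ID1 there was 1 summit, 5.56 kb from the start, with a fold of 5.71 on 12 fragments. Of the 7 summits assigned to ID1, 6 thus lay before its start, and the highest stood 11.8 and 32.2 kb away from it.

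The ID1 and ID3 start regions are shown because their peaks lie on them. Each line gives the 250 bases before the start, 5′ to 3′ on the gene's strand, with the bases covered by the peak in capitals. They come from RefSeq (GRCh38.p14), at chr20:31605039-31605288 (plus strand) for ID1 and chr1:23559502-23559751 (minus strand) for ID3.
ID1: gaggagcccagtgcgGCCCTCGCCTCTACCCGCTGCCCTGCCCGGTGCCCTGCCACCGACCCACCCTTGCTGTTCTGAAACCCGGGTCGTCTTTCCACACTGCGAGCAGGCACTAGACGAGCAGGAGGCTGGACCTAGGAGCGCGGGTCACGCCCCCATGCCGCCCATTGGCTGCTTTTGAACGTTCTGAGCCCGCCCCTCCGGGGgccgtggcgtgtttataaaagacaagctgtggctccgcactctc
ID3: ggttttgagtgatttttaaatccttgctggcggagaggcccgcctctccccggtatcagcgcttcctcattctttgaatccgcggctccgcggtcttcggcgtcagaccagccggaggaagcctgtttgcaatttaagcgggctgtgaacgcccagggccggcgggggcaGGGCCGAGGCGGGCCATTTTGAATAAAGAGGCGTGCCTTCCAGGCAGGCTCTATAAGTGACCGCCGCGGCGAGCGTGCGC

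ID3 is best known for restraining E proteins in lymphocytes. Its record spans 1576 bp of chromosome 1, from 23557926 to 23559501 on the minus strand. The peak from 23559341 to 23559581 crossed the start, covering the last 80 bases before it, and its summit lay 59 bp after the start. The same place lies within the record of a lncRNA, LOC124903876. The fold was 5.72 on 16 fragments (interval 9.15 to 26.0) and the −log10 q 6.75. In fold it stood above 38.6% of the genes with a summit at an end, so ID3 was below their median of 6.39 and ID1 above it. By the same measure TCF3 stood above 22.9% of these genes and TCF12 above 12.4%, both below the median.

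Around ID3, 7 more summits were spread on both sides. Before the start they stood at 3.01, 8.85, 26.3 and 34.2 kb, with folds of 5.46, 4.86, 4.69 and 5.22 on 7 to 11 fragments. Those at 3.01 and 8.85 kb lay in the LOC124903876 record. A summit 2824 bp beyond the finish, also in the LOC124903876 record, had a fold of 4.88 on 14 fragments. It fell 160 bp from the lncRNA LOC105376859, and its peak overlapped the start window of that lncRNA. The remaining pair lay at neighbouring genes. The peak 34 bp from ASAP3, a GTPase-activating protein of the Arf family, had a fold of 7.10 on 14 fragments, the highest in this neighbourhood. The peak inside E2F2, a cell cycle transcription factor, had a fold of 4.54 on 7 fragments.

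ID2, best known for its role in innate lymphocytes and for binding the retinoblastoma protein, had no summit at its ends or inside. Its record lies on chromosome 2 from 8682056 to 8684461 on the plus strand. The only summit within 100 kb stood 36.4 kb before the start, in the lncRNA LOC105373411, with a fold of 5.11 on 10 fragments. ID4, the member most prominent in neural and mammary progenitors, likewise had none at its ends or inside. It lies on chromosome 6 from 19837370 to 19842197 on the plus strand. A summit 32.6 kb before its start, 39 bp from the lncRNA LNC-LBCS, had a fold of 5.66 on 8 fragments. The other, 97.6 kb beyond the finish, had a fold of 6.05 on 9 fragments. Of the ID genes, ID1 and ID3 thus had a peak at the start and several nearby, and ID2 and ID4 had neither. Among all protein-coding records with a known start 44.5% had a summit there, and 4 genes are too few to set apart from that share. Other protein-coding records within 100 kb numbered 4 for ID1 and 2 for ID3, against 1 for ID2 and 0 for ID4. The part of these neighbours was not tested.

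**Figure D3:**
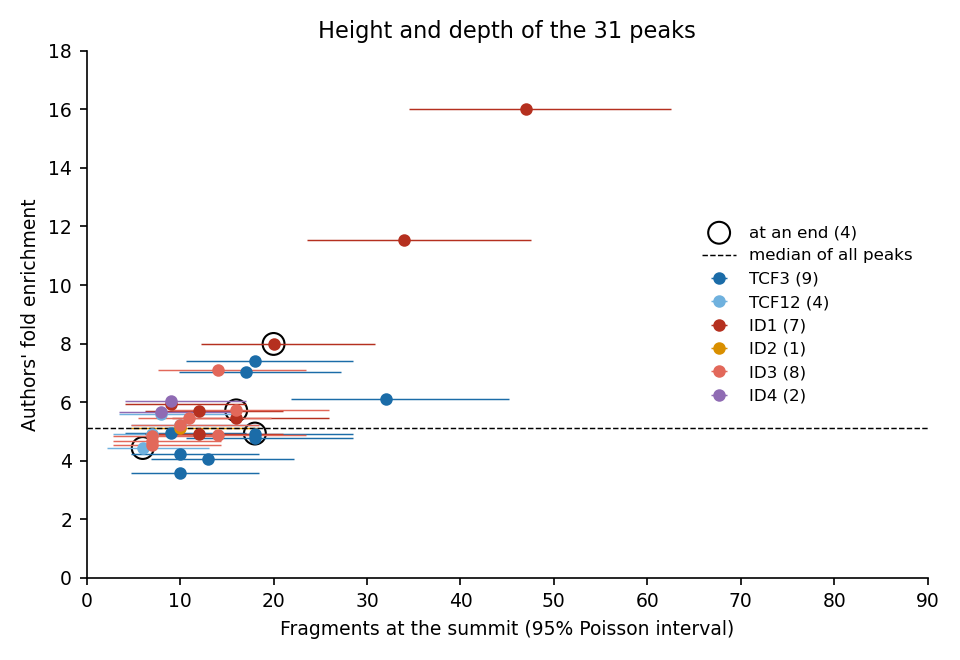
The authors' fold enrichment (vertical axis) of each of the 31 peaks against the number of fragments at its summit, with exact 95% Poisson intervals, coloured by the gene it was assigned to. Open circles mark the 4 peaks at a gene end, the dashed line the median fold of all peaks. A pair of ID1 peaks, with folds of 16.0 and 11.5, stand above the rest.

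Expressed per 100 kb of the record with its flanks, ID3 had 3.97 summits (interval 1.71 to 7.82), TCF3 3.70 (1.69 to 7.02) and ID1 3.48 (1.40 to 7.17). ID4 had 0.976 (0.118 to 3.53), TCF12 0.698 (0.190 to 1.79) and ID2 0.494 (0.0125 to 2.75). TCF4 had 0, which allows up to 0.601. Neighbours in this order overlap in their intervals. The upper bound of TCF4 lies below the lower bounds of ID3, TCF3 and ID1, and no other pair of genes is separated. Summits cluster, so these intervals are too narrow as a measure of more than counting error.

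The chromosomes also differ, here in the raw count of summits within 100 kb, whose window is wider for a longer record. TCF3 had 9 summits within 100 kb, and the median of protein-coding records on chromosome 19 was also 9. ID1 had 7 against a chromosome 20 median of 6, and ID3 had 8 against a chromosome 1 median of 4. TCF12 had 4, the same as the chromosome 15 median of 4. ID2 had 1 and ID4 had 2 against medians of 3 on chromosomes 2 and 6, and TCF4 had 0 against a median of 1 on chromosome 18. In this raw count ID3 therefore stood highest relative to its chromosome, while TCF3 matched the median of its own. Over records of like length the medians were 4 for TCF3, 2 for TCF4 and 3 for TCF12. They were 2 for ID1, 4 for ID2, 4 for ID3 and 5 for ID4.

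**Figure D4:**
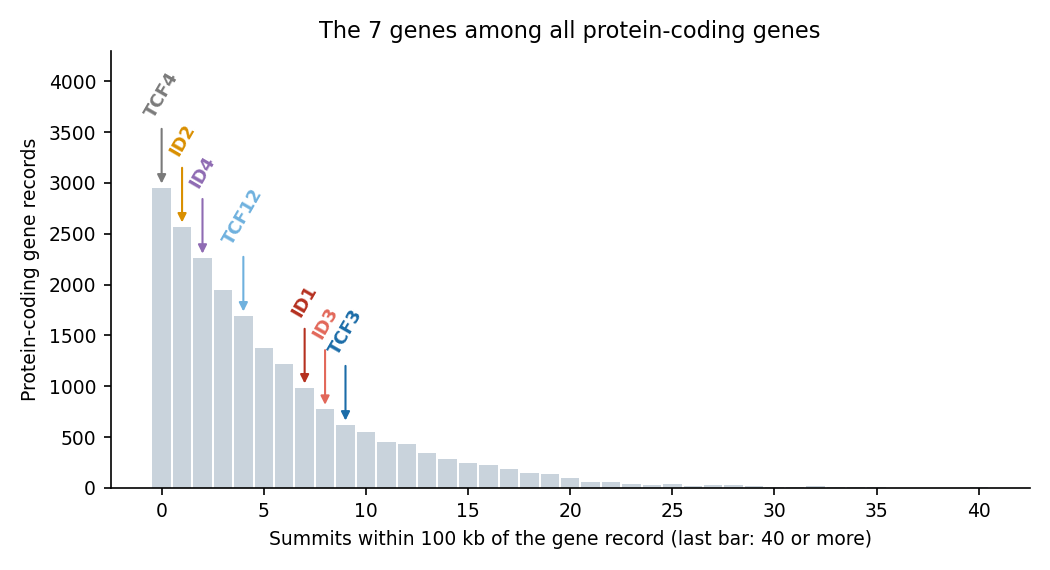
The number of protein-coding gene records (vertical axis) by their count of summits within 100 kb (horizontal axis), with the 7 genes marked by arrows. TCF4, ID2 and ID4 sit at 0, 1 and 2 summits, TCF12 at the median of 4, and ID1, ID3 and TCF3 at 7, 8 and 9.

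The genes most like each member were those of like length, from 20% shorter to 25% longer, with the same number of summits at an end, inside and within 100 kb. TCF4 shared its empty layout with 88 of 367 records, the nearest in length being PLCB4 and ANO4. ID2 shared its layout with 52 of 713, nearest GUCA2B and CALHM6, and ID4 with 69 of 1259, nearest RTL5 and TMEM247. The layouts with several summits were shared with few records. High counts are rarer among all protein-coding records, with 0 summits within 100 kb in 2953 and 9 in 621. Fewer exact matches are therefore found at them in any case. TCF12 shared its own with 4 of 413, nearest MIPOL1 and MAF, TCF3 with 15 of 2261, nearest NCBP3 and NSUN4, ID1 with 2 of 398, IMP3 and COX7A1, and ID3 with 4 of 497, nearest RPL36 and ACTL10.

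Letters that match an E-box were compared with the peaks in the 20 start windows of the 7 genes. The search covered both strands and began with CANNTG, the general form, of which CAGGTG, the form CAGCTG and the form CACGTG are special cases. It added CTTTGAT, as read by TCF/LEF factors, and GGCGCC, as found in SMAD sites at BMP-responsive genes. None of these letters occurred in the window of ID1, of ID3 or of TCF3, nor in the TCF12 window that holds the summit. The TCF3 peak, at -485 to -366 from the start, lies wholly outside its window, so its bases were not read. The ID3 peak, at -80 to 160, was read only in the part inside its window, and its summit lies beyond it. CANNTG was found in 68.7% of all 34943 windows, CAGGTG in 20.6%, CAGCTG in 17.9%, CACGTG in 7.23%, CTTTGAT in 2.63% and GGCGCC in 19.2%. No CTTTGAT was found in any of the 20. GGCGCC was found only in the TCF12 window of the start at 56919087, which lies within 1 kb of the summit, at -124 to -119 and at -96 to -91 counted from the first transcribed base as 0.

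Among these 20 windows, those without a peak nearby held the E-box letters more often. Of the 7 windows within 1 kb of a summit, 4 of them the neighbouring starts of TCF12 that share a peak, 1 held CANNTG. Of the other 13, 10 of them from TCF4, 10 held it. Over all 34943 windows 68.7% held it. Windows of the same gene are not independent, so these counts rest largely on TCF12 and TCF4. Only the windows of ID1 and of the TCF12 start at 56918644 held the summit itself. The comparison thus concerns windows near a peak, not the bases under the peaks. The windows also differ in base composition: the G and C content was 58.3 to 78.3% in the 7 and 35.7 to 76.3% in the 13, and its part in the difference was not tested. ID2 and ID4, both without a peak, each had a single CAGCTG, at -205 to -200 and at -21 to -16. The outermost TCF12 window had a CACGTG at -183 to -178, outside the peak. Among TCF4 windows, 7 of 10 held CANNTG, including a CACGTG at -49 to -44 of the start at 55588617. A match is a description of letters, and a window without one says nothing on whether a factor was bound.

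The ID2 and ID4 start regions are shown as the counterpart to those of ID1 and ID3, with the E-box letters in capitals. Each line gives the 250 bases before the start, 5′ to 3′ on the plus strand, at chr2:8681806-8682055 and chr6:19837120-19837369 (RefSeq, GRCh38.p14).
ID2: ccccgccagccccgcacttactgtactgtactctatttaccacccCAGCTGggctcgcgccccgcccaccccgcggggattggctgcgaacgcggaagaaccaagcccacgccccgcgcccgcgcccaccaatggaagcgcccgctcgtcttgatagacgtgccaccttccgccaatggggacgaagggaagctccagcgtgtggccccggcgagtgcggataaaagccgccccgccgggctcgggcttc
ID4: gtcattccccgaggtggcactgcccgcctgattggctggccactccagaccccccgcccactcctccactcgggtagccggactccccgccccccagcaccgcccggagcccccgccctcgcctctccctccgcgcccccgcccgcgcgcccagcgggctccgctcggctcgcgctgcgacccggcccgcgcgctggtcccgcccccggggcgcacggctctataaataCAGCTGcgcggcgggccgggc

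Genes that work with E and ID proteins were read against the same background of 41.5% of protein-coding records with a summit at an end. Of 10 cofactors of E proteins, 4 had one. CBFA2T2, a corepressor of the ETO family, had a fold of 13.7 on 31 fragments, and the acetyltransferase EP300 had 11.4 on 26. Its paralogue CREBBP had 6.89 on 14 and RUNX1T1, another ETO corepressor, 4.91 on 7. The acetyltransferase KAT2B, the corepressor CBFA2T3 and the adaptors LDB1 and LMO1 lacked a summit at their ends, although 1 each lay inside KAT2B and CBFA2T3 and 3 inside LDB1.

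Of 16 genes of BMP signalling, which drives ID transcription, 6 had a summit at an end. None lay within 100 kb of 6 of the 16, against 14.9% of all protein-coding records. The receptor genes BMPR2, BMPR1A and ACVR1 had folds of 8.80, 6.95 and 6.01, and the signal transducer SMAD5 had 4.65. The ligand genes BMP2, BMP4 and BMP7 and the receptor gene ACVRL1 lacked a summit at their ends, although 1 each lay inside BMP7 and ACVRL1.

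Of the 4 genes of ID protein turnover, 2 had a peak. The APC/C activator FZR1 had a fold of 10.9 on 48 fragments and the deubiquitinase USP1 had 7.76 on 14, while COPS5, a COP9 signalosome subunit, and WDR48, the partner of USP1, had none at an end. Of 6 cell cycle inhibitors, 4 had one: CDKN2B with a fold of 6.60, CDKN1B with 5.92, RB1 with 5.88 and CDKN2A with 4.66. CDKN1A had none at an end but 2 inside, and CDKN1C had neither. Among 5 zinc finger repressors that read E-boxes, SNAI3 had a fold of 5.22 and SNAI1 4.32, while SNAI2, ZEB1 and ZEB2 had no summit at an end or inside. In the other lists a summit lay within 100 kb of 9 of the 10 cofactors and of every turnover gene, inhibitor and repressor. Over all protein-coding records the share was 85.1%. A summit lay inside 7 of the 10 cofactors and 6 of the 16 BMP genes, against 39.0% of records. For turnover genes, inhibitors and repressors it lay inside 2 of 4, 4 of 6 and 2 of 5. These lists are small, and their shares were not tested.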

How the data were processed

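The material was a list of 26642 peaks from 1 library of CAL-27 sphere cells, made with a TCF4 antibody. Per the submitters' processing notes, Bowtie2 2.3.5.1, SAMtools, MACS2 2.2.7.1 and the build hg38 were used; settings are not given in the sources used here. In the deposited list the fold enrichment is a ratio over local background, the −log10 values are of the p-value and the q-value that the caller gave, and the score restates the −log10 q. These are the authors' values of each peak.

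The fold, (fragments + 1) / (background + 1), and the p-value, an upper Poisson tail, were solved together for the fragments at each summit. The −log10 p was matched within 0.0001 for 26642 of 26642 peaks, and 500 of 500 simulated peaks were recovered. The depth of the library is unknown.

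Genes on assembled chromosomes came from a RefSeq table (GRCh38.p14, the assembly that hg38 names, 58961 records), starts and sequences from 34943 windows of 300 bases on 23 chromosomes. Members and lists were chosen with earlier results of these data known. The named genes are the 7, each peak within 100 kb with its nearest genes, 2 genes most like each, and up to 4 list members with and 4 without a summit at an end. Shares are descriptions with no test. Alternatives were stricter peak limits, other windows and peak overlap; the planned protein comparison was not run. Scripts ran in Python 3.11.15 with pandas 2.3.3, SciPy 1.17.1 and NumPy 2.4.6, and figures were drawn with Matplotlib 3.10.9.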

Additional observations from a re-analysis of the deposited data

How the results depend on the processing

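With the window at gene ends set to 500 or 2000 bp, with starts only, or with any overlap of the peak, the 4 genes with a peak at an end stayed 4. In that order the shares over all protein-coding records were 36.6%, 45.7%, 44.5% (of those with a known start) and 42.2%. The share in the main setting was 41.5%, so it moved little as well. With a −log10 q of at least 5 (27.4% of all protein-coding records), or at least 10 fragments at the summit (29.5%), TCF12 dropped out and 3 remained. With a −log10 q of at least 10 there was 1, ID1, against 14.2% of records. Genes with a summit inside, 2 in the deposited list, were 1, ID3, under each of the first limits (20.0% and 23.1% of records) and 0 under the last (8.22%). Within 100 kb, where 6 genes had a summit, 4 did at the −log10 q limit of 5 (without ID2 and TCF12; 69.3% of records), 5 with at least 10 fragments (without ID4; 66.8%) and 2 at the limit of 10, TCF3 and ID1 (46.4%). The 31 summits became 14 with the −log10 q limit of 5, 5 with that of 10, and 59 within 200 kb. In that order the median count per protein-coding record went from 4 to 1, 0 and 6. These changes follow from fewer or more peaks being counted. TCF4 had no summit under any of these settings. The other 6 genes each had one within 50 kb, against 77.6% of all records, and within 200 kb, against 91.0%. No paired analysis was possible because each group has 1 library, of which that with IgG was not analysed here.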

Other observations

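Over all 34943 start windows, E-box letters were compared between windows that hold a summit and those that do not. CANNTG was found in 57.4% of the 6157 windows with a summit and in 71.1% of the 28786 without. The subtypes went different ways: CACGTG was found in 11.0% with a summit and 6.42% without, CAGCTG in 16.1% and 18.3%, and CAGGTG in 18.7% and 21.0%. The TCF/LEF letters CTTTGAT were found in 1.02% and 2.97%, and GGCGCC in 34.1% and 16.0%. Windows with a summit had a median G and C content of 68.0%, against 55.3% without, and the part of base composition in these shares was not tested. Windows of neighbouring starts overlap and are not independent.

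Of 6 marker genes of squamous epithelium, 5 had a summit at an end, with folds of 4.16 at KRT14 to 6.44 at ITGA6, and TP63 had 2 summits inside only. Over all protein-coding records 41.5% had a summit at an end. The median best fold of those genes was 6.39, and of the 5 markers only ITGA6 stood above it. Of 6 lymphocyte markers, CD8A alone had one, on 6 fragments. Peaks do not measure expression, so this does not test the identity of the cells.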
